A study of Mus musculus with 12 samples.

Results

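Activity-regulated genes are genes whose transcription in neurons changes with synaptic activity. The 9 genes described here, 8 of this kind and 1 coactivator of the response, are the immediate early transcription factors Fos, Junb, Egr1 and Nr4a1, the transcriptional coactivator Crebbp, the synaptic protein genes Arc, Nptx1 and Nptx2, and the neurotrophin gene Bdnf. Their data are the places in mouse forebrain RNA where a small RNA bound by Argonaute 2 (Ago2) was joined to one of these transcripts. Members were taken by gene symbol, as the rows of 4 deposited peak lists that carry one of the 9 symbols. These rows numbered 203 of 250567 peaks, and they covered 8 of the 9 genes. No peak carried the symbol Junb.

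Each peak names a small RNA and a stretch of target RNA that were read together in chimeric reads, after ultraviolet cross-linking, Ago immunoprecipitation and a ligation that joins both RNAs. The 12 libraries came from C57BL/6 forebrain. Anti-Ago2 was used for 7 libraries in 2 lists (replicates 1 to 4, called reps 1-4 here, and replicates 5 to 7, called reps 5-7). Anti-myc was used for 3 libraries (the excitatory list), to precipitate the tagged Ago2 that the Rosa26 CAG-GFP/Eif2c2 allele makes once Camk2a-Cre/ERT2 has been activated in excitatory neurons, and an IgG1 control for 2 libraries. The labels give 1 treatment text for all samples: 2 mg of tamoxifen daily for 5 days, 14 to 21 days of induction and harvest at 10 to 12 weeks of age. The sources used here do not state if mice of the anti-Ago2 and IgG libraries had the tag. The tag marks cells in which the Camk2a-driven Cre was active, and the labels do not say whether a library is 1 mouse or several, or whether replicates were separate mice.

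Calls were made over the pooled libraries of a list, so each list is a single observation and no value below has a spread between replicates. Intervals and tests on numbers of peaks cover counting error alone. The protocol gives 61 to 138 megareads per sample; depth by library is not given. The lists held 246180 peaks (reps 1-4), 3611 (reps 5-7), 766 (excitatory) and 10 (IgG). The score of a peak is the authors' own whole number, of unstated definition; the lowest score, 3, equals the minimum of reads set for a call. It is not scaled to depth, so scores are compared here within a list. All positions are on mm10. The numbers that the calling summaries give to libraries were shared in 3 cases by the reps 5-7 and excitatory lists, and reps 1-4 shared 0 with either; the meaning of these numbers is not stated.

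Neuronal activity lets calcium into the cell, calcium-dependent kinases phosphorylate transcription factors such as CREB, and CREB recruits the acetyltransferase CBP, the product of Crebbp, to promoters. Immediate early transcription factors are made first, without the need for new protein, and their transcripts are short-lived. Effectors follow: Arc binds the endocytic machinery and removes AMPA-type glutamate receptors from the synapse, neuronal pentraxins cluster those receptors from outside the cell, and brain-derived neurotrophic factor signals through the receptor TrkB. MicroRNAs guide Ago2 to messages mainly through the seed, bases 2 to 8 of the microRNA, and lower their stability or translation. miR-124-3p is among the most abundant microRNAs of the brain, and miR-138-5p and let-7 are also well known in brain.

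The small RNAs that carried most of the findings apart from miR-124-3p are printed next, 5′ to 3′, with the seed in capitals. Of the 44 small RNA names with a peak on the 9 genes, 40 matched RefSeq's mature sequences (GRCm38.p6). The let-7 members are shown because they met at a single stretch of Arc and share a seed, miR-138-5p because it lay on 5 of the genes, miR-101a-3p and miR-29 because they made up all the peaks of Fos, and miR-34a-5p because it lay on 4 genes.
let-7c-5p: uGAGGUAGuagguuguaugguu
let-7a-5p: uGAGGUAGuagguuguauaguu
let-7e-5p: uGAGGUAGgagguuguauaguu
miR-138-5p: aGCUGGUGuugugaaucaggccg
miR-29a-3p: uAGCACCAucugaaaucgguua
miR-29b-3p: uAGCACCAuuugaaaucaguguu
miR-101a-3p: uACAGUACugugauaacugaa
miR-34a-5p: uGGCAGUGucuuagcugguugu

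Members of the let-7 family differ from each other at few bases, as do miR-29a-3p and miR-29b-3p, so reads of 1 member could have been assigned to another in the deposited names. Peaks of such a family at 1 place are therefore not independent binding events.

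The reps 1-4 list held nearly all of the data on these genes, 185 of the 203 peaks, and the excitatory list held more of them than its length would give. In reps 1-4 the 9 genes had 0.0751% of the peaks (Wilson 95% interval 0.0651 to 0.0868%). In reps 5-7 they had 8 peaks, 0.222% (0.112 to 0.437%), and in the excitatory list 10 peaks, 1.31% (0.711 to 2.39%). IgG had 0 of 10 peaks, which allows a share of up to 27.8% (Wilson 95% interval), so this control says little about genes with so few peaks. Among peaks in coding sequence (CDS) and untranslated regions (UTRs) alone, the shares were 0.150%, 0.336% and 1.72%. Shares of peaks depend on how deep a list goes, and the reps 1-4 list reached many more low-scoring peaks. Of its 3611 highest-scoring peaks 7 lay on these genes (0.194%, against 0.222% of reps 5-7), and of its 766 highest-scoring peaks 2 did (0.261%, against 1.31% of the excitatory list).

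Within reps 1-4 the 9 genes differed widely. Crebbp had 61 peaks, Arc 32, Nptx1 29, Egr1 28, Nr4a1 22, Nptx2 6, Bdnf 4 and Fos 3. Junb had 0 of 246180 peaks, which allows a share of up to 0.00150% (upper end of the exact binomial interval). The median over the 8 genes with a peak was 25 peaks, against 5 over all 11352 genes with a peak. Per kilobase of RefSeq gene, introns included, Arc ranked first at 9.17 peaks and Egr1 second at 7.47, followed by Nptx1 at 3.19, Nr4a1 at 1.05, Fos at 0.886, Nptx2 at 0.518, Crebbp at 0.460 and Bdnf at 0.0764. A count of peaks follows how much of a transcript there is as well as how often it is bound, and transcript levels were not analysed here.

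**Figure D1:**
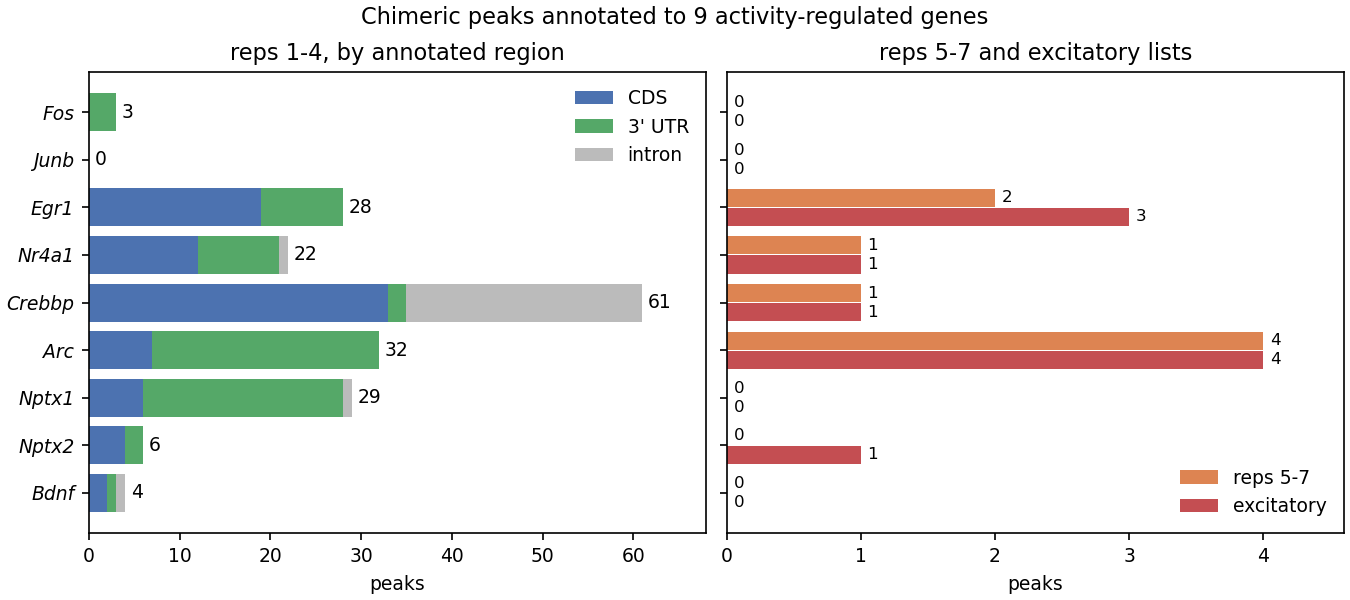
Number of chimeric peaks per gene (x axis, peaks) in reps 1-4, stacked by annotated region (left), and in the reps 5-7 and excitatory lists (right). Each bar is a count from 1 pooled list. Crebbp has 61 peaks in reps 1-4 and Junb 0, and the Arc bars reach 4 in both shorter lists.

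Among the transcription factors, Egr1 and Nr4a1 each had their highest score at a miR-124-3p peak, Fos had 3 modest peaks in its 3' UTR, and Junb had none. Egr1, a zinc finger protein induced by strong synaptic input, had 19 CDS and 9 3' UTR peaks in reps 1-4, and 13 of the 28 named miR-124-3p. Its highest score was 139, for miR-124-3p in the CDS (chr18:34862627-34862630), the 309th highest of 103963 CDS and UTR peaks of the list. That score was 34.8% of the gene's summed score of 400. The next were miR-124-3p peaks at 54 (chr18:34863624-34863625, CDS) and 28 (chr18:34864528-34864538, 3' UTR). The CDS peaks at 139, 54 and 26 (chr18:34862596-34862613) were also in the excitatory list, at scores of 13, 5 and 3, and the first pair in reps 5-7, at 14 and 5. So every Egr1 peak of the shorter lists was a miR-124-3p peak in coding sequence, matching 3 of the 19 CDS peaks. None of the 9 peaks in the 3' UTR came back, the highest of which scored 28. The pair found in both shorter lists had the 2 highest scores of the gene, so region and score were not separated. Egr1 also had 3 peaks of miR-26a-5p in the 3' UTR (highest score 12) and 2 of miR-138-5p in the CDS (highest score 8).

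Nr4a1, an orphan nuclear receptor, had 12 CDS, 9 3' UTR and 1 intron peak in reps 1-4. A single miR-124-3p peak in the 3' UTR (chr15:101274298-101274313), 482 bases from the end of the gene, scored 375 and made up 73.7% of the summed score of 509. It ranked 36th of the 103963 CDS and UTR peaks and 16th of the 21946 of miR-124-3p. The same peak was the only Nr4a1 peak of reps 5-7 (score 19) and of the excitatory list (score 12). The next scores of Nr4a1 in reps 1-4 were 25 (miR-124-3p, chr15:101274255-101274262, 3' UTR) and 15 (miR-138-5p, chr15:101270107-101270110, CDS). All 4 miR-138-5p peaks of Nr4a1 lay in the CDS, at scores of 15, 9, 4 and 3. Around the leading peak, 8 overlapping peaks of 7 small RNAs formed 1 site (chr15:101274245-101274314) with peaks annotated to both CDS and 3' UTR; miR-124-3p held 400 of its summed score of 423, and each of the other 6 small RNAs scored 5 or less.

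Fos, the founding member of the AP-1 family, had 3 peaks in reps 1-4 and 0 in every other list. All 3 lay in the 3' UTR: miR-101a-3p at 12 (chr12:85476984-85477005), and miR-29a-3p at 9 (chr12:85476834-85476853) overlapped by miR-29b-3p at 5 (chr12:85476837-85476847). The miR-29 peaks share the seed printed above and lay 421 bases from the end of the gene. Among the 8 genes with a peak, Fos was the only one that had none of miR-124-3p. For Junb, a partner of Fos in AP-1, no small RNA can be named.

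Crebbp, the coactivator, had the highest score of the 9 genes, in its coding sequence 4405 bases from the end of the gene. This miR-124-3p peak at chr16:4085739-4085741 scored 472, ranked 19th of the 103963 CDS and UTR peaks and 8th of those of miR-124-3p, and made up 64.0% of the gene's summed score of 738. It was the only Crebbp peak of reps 5-7 (score 18) and of the excitatory list (score 8). The next scores were 23 (miR-124-3p, chr16:4085634-4085649) and 11 (miR-138-5p, chr16:4085629-4085636), both also in the CDS. Crebbp is the longest of the 9 genes, and 26 of its 61 peaks lay in introns, where 11 of its 17 miR-124-3p peaks were; the 3' UTR had 2. The intron peaks scored 6 or less; 2 of them reached 6 (miR-124-3p, chr16:4158160-4158194, and miR-29b-3p, chr16:4154785-4154800). After miR-124-3p, its leading small RNAs were miR-9-5p with 8 peaks (highest score 9) and miR-26a-5p with 6 (highest score 4).

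Arc had the most peaks per kilobase, and many of them met near the end of its 3' UTR. It had 25 3' UTR and 7 CDS peaks in reps 1-4, and 16 of the 32 scored 10 or more, against 10 for Egr1, 5 for Nptx1 and 4 each for Nr4a1 and Crebbp. The highest score, 108, made up 18.0% of the summed score of 600, so Arc was not led by 1 peak in the way Nr4a1 and Crebbp were. Its 4 highest scores all lay between 49 and 122 bases from the end of the gene: miR-124-3p at 108 (chr15:74669172-74669181) and at 105 (chr15:74669130-74669166), let-7c-5p at 61 (chr15:74669132-74669148) and let-7a-5p at 41 (chr15:74669132-74669134). This stretch, chr15:74669130-74669203, held 15 overlapping peaks of 14 small RNAs. The 8 let-7 members there (a, b, c, d, e, f, g and i) scored 5 to 61 and summed to 167, miR-124-3p summed to 213, and miR-26a-5p (13), miR-34a-5p (9), miR-138-5p (7), miR-29a-3p (5) and miR-127-3p (5) had 1 peak each. Of the 66069 sites that CDS and UTR peaks of the list form, 111 had as many peaks.

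The same Arc stretch supplied most of the Arc peaks of the shorter lists. In the excitatory list all 4 Arc peaks lay in it: let-7c-5p at 8 (chr15:74669132-74669149), let-7a-5p at 7 (chr15:74669132-74669138), miR-124-3p at 4 (chr15:74669172-74669194) and let-7e-5p at 3 (chr15:74669131-74669152). In reps 5-7, 3 of 4 did: let-7c-5p at 6 (chr15:74669132-74669149), miR-124-3p at 4 (chr15:74669133-74669177) and let-7a-5p at 3 (chr15:74669130-74669149). In both of these lists let-7c-5p had the highest Arc score, whereas miR-124-3p had it in reps 1-4. The fourth reps 5-7 peak was let-7a-5p at 3 (chr15:74670959-74670975), nearer the coding sequence, where reps 1-4 had 4 overlapping peaks of let-7a-5p, let-7b-5p, let-7c-5p and miR-124-3p with scores of 9 to 14. Altogether Arc had 12 let-7 peaks in reps 1-4 with a summed score of 225, against 7 of miR-124-3p with 285. It also had 4 miR-138-5p peaks (highest score 13), 2 in the CDS and 2 in the 3' UTR.

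**Figure D2:**
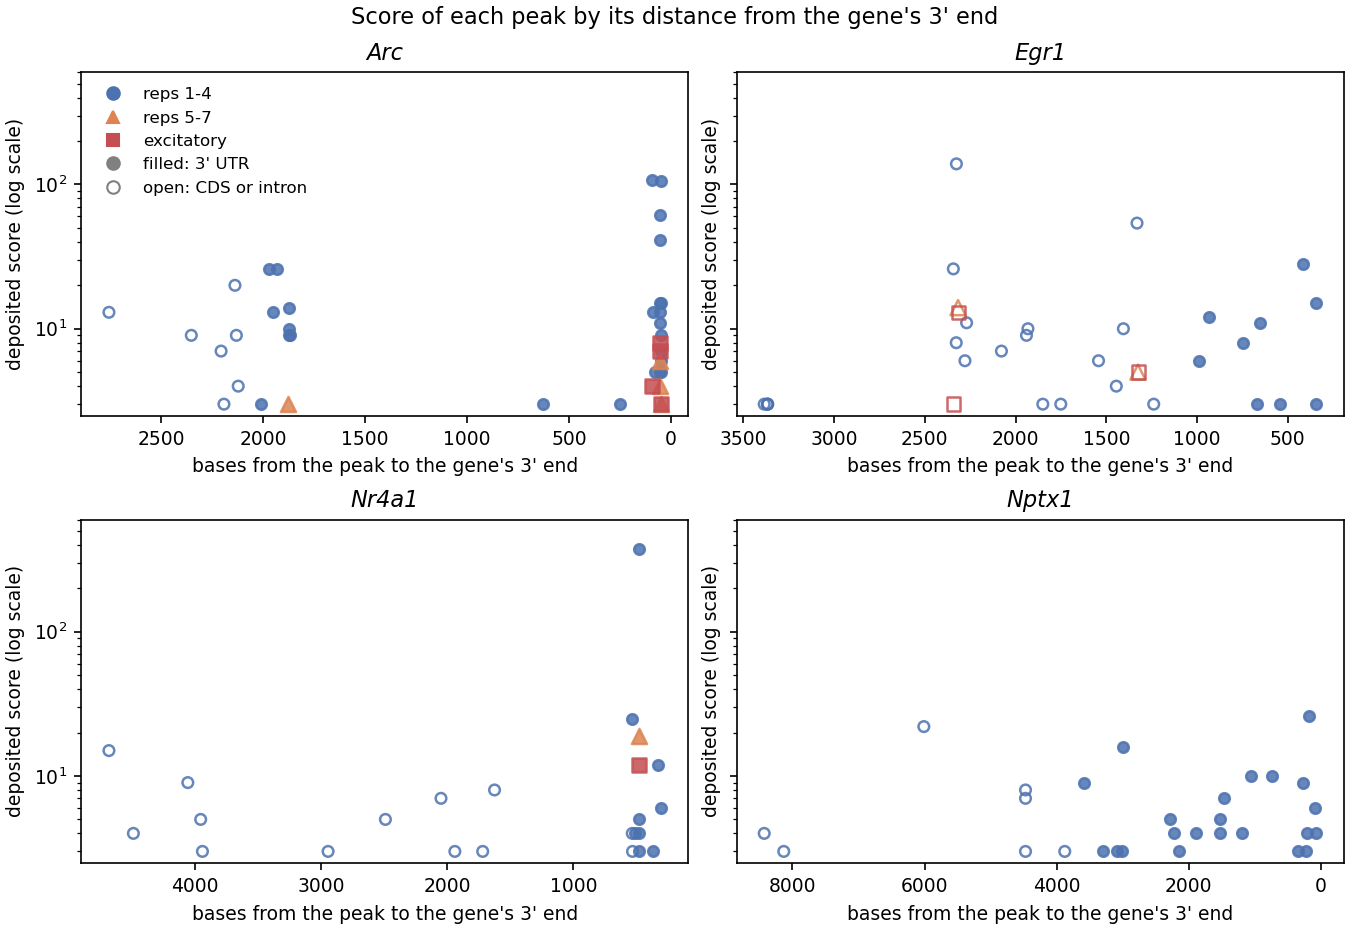
Deposited score of each peak (y axis, log scale) against its distance in bases from the 3' end of the RefSeq gene (x axis, running towards the 3' end) for Arc, Egr1, Nr4a1 and Nptx1, with lists by colour and shape and 3' UTR peaks filled. Arc peaks of all 3 lists pile up between 49 and 122 bases from the end, the leading Egr1 peak at 139 is an open (CDS) symbol, and Nptx1 shows reps 1-4 peaks alone, none above 26.

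The pentraxin genes and Bdnf had lower scores. Nptx1, a secreted pentraxin that binds AMPA receptors, had 29 peaks in reps 1-4, 22 of them in the 3' UTR, 6 in the CDS and 1 in an intron, and 0 peaks in the other lists. Its highest scores were 26 (miR-9-5p, chr11:119538906-119538909, 3' UTR), 22 (miR-124-3p, chr11:119544730-119544737, CDS) and 16 (miR-124-3p, chr11:119541716-119541734, 3' UTR). It was the only gene of the 9 whose highest score belonged to miR-9-5p, although miR-124-3p had 8 of its peaks and miR-9-5p and miR-26a-5p had 2 each. The miR-9-5p peak lay 187 bases from the end of the gene.

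Nptx2, the pentraxin most strongly induced by activity, had 6 peaks in reps 1-4, with scores of 3 to 9. The pair at 9 were miR-124-3p peaks in the CDS (chr5:144553422-144553446 and chr5:144556336-144556361), and the next, at 6, was miR-29a-3p in the 3' UTR (chr5:144557030-144557048), overlapped by miR-29b-3p at 5. The first of these came back in the excitatory list at a score of 3 (chr5:144553424-144553446), and no Nptx2 peak was in reps 5-7. Fos, Nptx1, Nptx2 and Crebbp each had a place where miR-29a-3p and miR-29b-3p peaks overlapped, in the 3' UTR of Fos and Nptx2, in the CDS of Nptx1 (scores of 8 and 7) and in an intron of Crebbp (scores of 4 and 6).

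Bdnf had 4 peaks in reps 1-4 and 0 in the other lists. They were miR-124-3p at 6 (chr2:109723699-109723716, CDS), let-7g-5p at 5 (chr2:109723744-109723764, CDS), miR-129-2-3p at 3 (chr2:109678656-109678694, intron) and miR-125b-5p at 3 (chr2:109726222-109726263, 3' UTR). The long 3' UTR of Bdnf therefore held 1 peak, at the lowest score a list can hold.

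By region, the 185 peaks of reps 1-4 were 44.9% CDS (37.9 to 52.1%, Wilson 95% interval) and 39.5% 3' UTR (32.7 to 46.6%), against 22.6% and 18.7% of all peaks of the list. Introns held 15.7% (11.1 to 21.6%) against 47.6%, and 5' UTRs 0 of 185 against 0.956%. Crebbp had 26 of the 29 intron peaks. Without Crebbp the shares were 57.3% 3' UTR, 40.3% CDS and 2.42% intron. Of the 3 remaining intron peaks, those of Nr4a1 (miR-29a-3p, chr15:101272718-101272745) and Nptx1 (miR-151-5p, chr11:119547146-119547168) overlap the annotated intron by 1 base, so for these genes the intron label rests on a single base; over the whole list 4.44% of intron peaks do so. The genes also differed among themselves: Egr1 and Nr4a1 had more CDS than 3' UTR peaks, Arc and Nptx1 the reverse. None of these contrasts was tested.

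By small RNA, miR-124-3p led with 57 of the 185 peaks (30.8%, 24.6 to 37.8%), on 7 of the 9 genes, close to its 29.3% of all peaks of the list. Its share of the summed score was larger, 66.9%. Among CDS and UTR peaks it had 29.5% on these genes against 21.1% of the list. miR-138-5p had 13 peaks, 7.03% (4.15 to 11.7%), against 1.42% of all peaks, or 8.33% against 2.11% among CDS and UTR peaks. They lay on Arc (4), Nr4a1 (4), Crebbp (2), Egr1 (2) and Nptx1 (1), with a highest score of 15. The miR-138-5p peaks of Egr1, Nr4a1 and Crebbp were all in the CDS. miR-34a-5p had 4 peaks, on Arc, Nr4a1, Crebbp and Nptx1, 2.16% against 0.113% of the list; scores ran from 3 to 9, and it was picked out after the values were seen.

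The other leading small RNAs were nearer to their share of the list or below it. miR-26a-5p had 13 peaks, miR-9-5p 12, miR-29a-3p 10, let-7c-5p 7, and let-7a-5p, miR-128-3p and miR-29b-3p 5 each; let-7b-5p, let-7g-5p and miR-125b-5p had 4 each. For miR-9-5p the share was 6.49% against 10.7% of the list, and 8 of its 12 peaks were on Crebbp. Grouped by seed, the 8 let-7 members had 27 peaks, 14.6% (10.2 to 20.4%) against 8.81%, of which Arc supplied 12. Both of these shares include intron peaks, of which these genes had few. Among CDS and UTR peaks let-7c-5p had 4.49% (2.19 to 8.97%) against 3.50% of the list. For each of the 8 members taken singly, the interval of that share held the share of the list. The 8 together were not compared among CDS and UTR peaks. The miR-29 seed had 15 peaks, 8.11% against 7.94%. No p-value is given for these shares, because the genes were chosen with results of these data known.

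**Figure D3:**
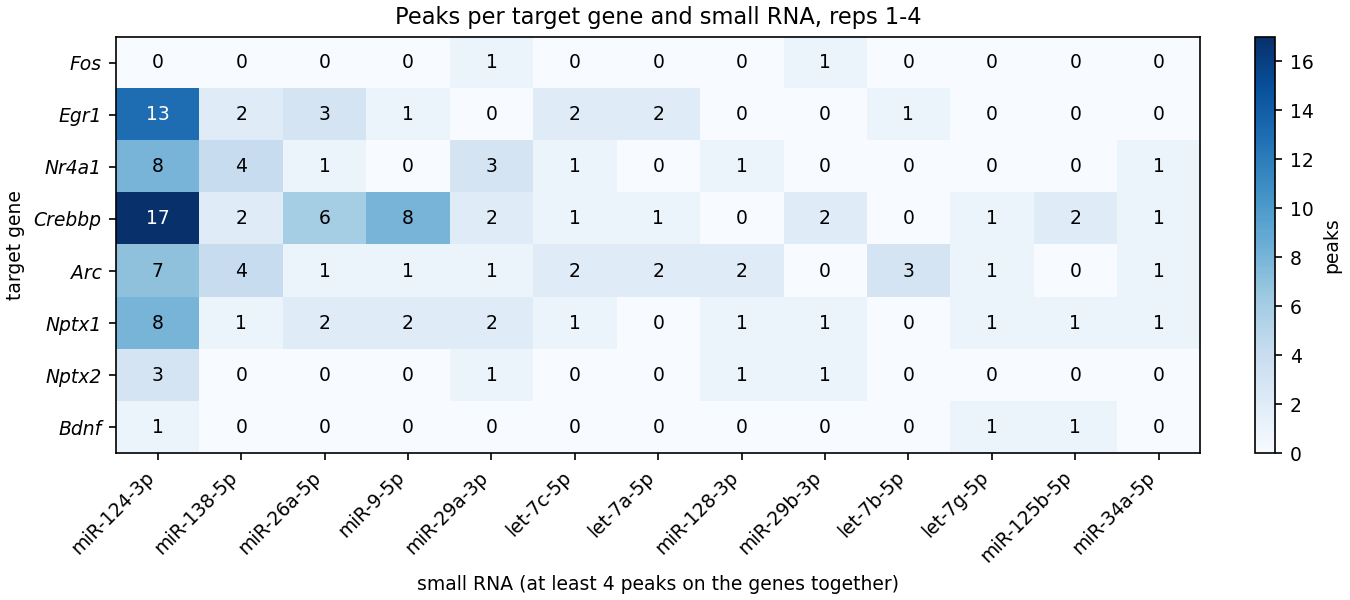
Number of reps 1-4 peaks (colour and printed number) for each target gene with a peak (rows) and each small RNA with at least 4 peaks on the genes together (columns). The miR-124-3p column is the darkest, with 17 peaks on Crebbp and 13 on Egr1, Fos is 0 there, and miR-138-5p has 4 peaks on both Arc and Nr4a1.

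For the 5 genes with at least 20 peaks in reps 1-4, the mix of small RNAs was set beside that of every other gene with as many, 2292 genes over 688 small RNAs, by cosine likeness of peak counts, where 1 is the same mix. Arc was most like R3hdm2 (0.919) and Sort1 (0.918), with a median of 0.727 over all genes. Egr1 was most like Foxj3 (0.969) and Fry (0.965; median 0.832), and Nr4a1 most like Syngr1 and Nfix (both 0.912; median 0.749). Crebbp was most like Galntl6 (0.966) and Grm5 (0.964; median 0.868), and Nptx1 most like Dst (0.924) and Ppp1r9a (0.923; median 0.840). None of these 5 genes was among another's nearest pair, which says little where a single pair is taken from 2292 genes. Fos, Junb, Nptx2 and Bdnf had too few peaks to be compared. The counts per small RNA behind these values are small.

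The peaks of the shorter lists were, on these genes, all found in reps 1-4, counting a peak as found where a peak of the same small RNA and strand shared at least 1 base with it. All 8 reps 5-7 peaks were found (exact 95% interval 63.1 to 100%), against 91.6% of all CDS and UTR peaks of that list, and all 10 excitatory peaks (69.2 to 100%), against 96.7%. Between the shorter lists themselves, 7 of the 8 reps 5-7 peaks were in the excitatory list (87.5%, 47.3 to 99.7%), against 12.8% of its CDS and UTR peaks. In the other direction, 7 of the 10 excitatory peaks were in reps 5-7 (70.0%, 34.8 to 93.3%), against 52.4%. These lists share 3 library numbers, whose part in this was not tested. The shares are not matched for score: the median reps 5-7 score was 5.5 on these genes and 4 over that list. A single Arc stretch supplied 3 of the 8 reps 5-7 peaks, so the intervals count as separate some peaks that are not independent.

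Seen from reps 1-4, 12 of its 185 peaks had a counterpart in a shorter list, 7 in both, 2 in reps 5-7 alone and 3 in the excitatory list alone. The 7 in both were the Crebbp and Nr4a1 peaks at 472 and 375, the Egr1 peaks at 139 and 54, and the Arc peaks of miR-124-3p at 108, let-7c-5p at 61 and let-7a-5p at 41. The single reps 5-7 miR-124-3p peak of Arc overlaps both Arc miR-124-3p peaks of reps 1-4 and is counted for each. Finding again followed the score: 5 of 5 peaks at 100 or more came back, 4 of 12 at 20 to 99, 1 of 23 at 10 to 19 and 2 of 145 at 3 to 9. For all CDS and UTR peaks of reps 1-4 the shares in these classes were 76.7%, 19.5%, 2.87% and 0.283%. The counts on these genes include their intron peaks, all in the class of 3 to 9, so that class is not matched by region. The order of scores was kept in part: the Crebbp peak ranked above that of Nr4a1 in reps 1-4, and below it in both other lists (18 against 19, and 8 against 12). In the excitatory list the Egr1 peak was highest of the 3, at 13.

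**Figure D4:**
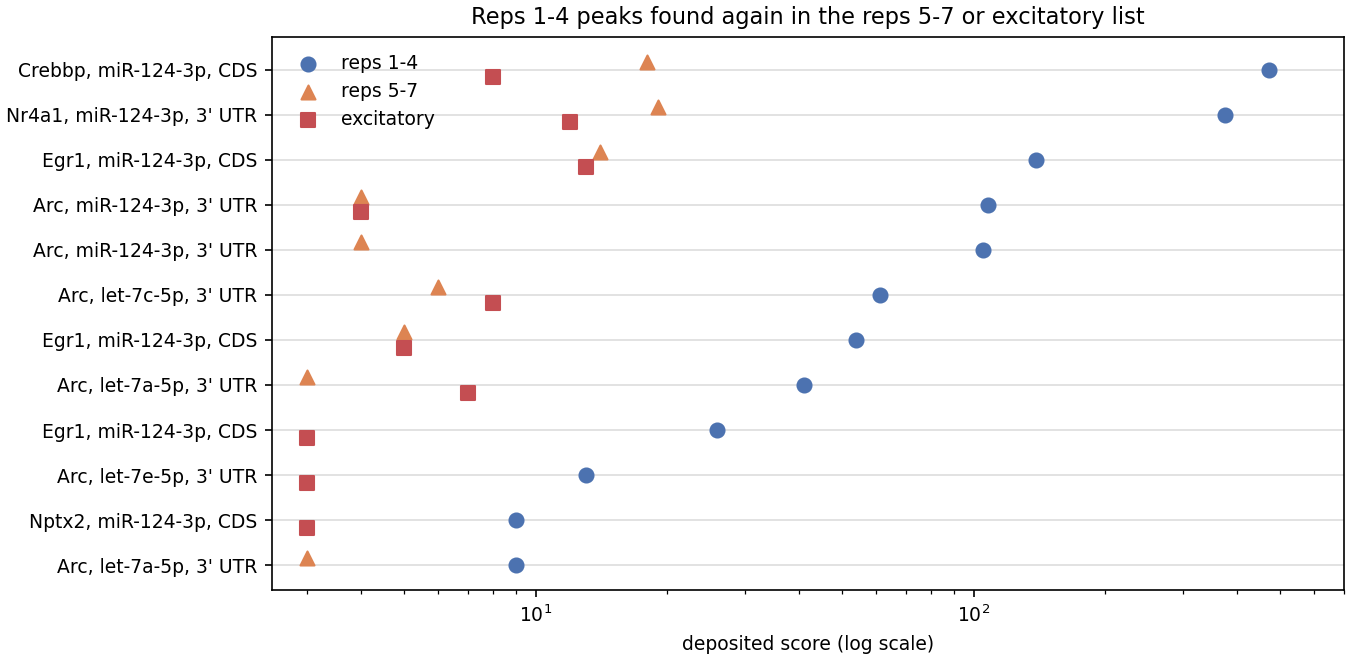
Deposited score (x axis, log scale) of the 12 reps 1-4 peaks that have a counterpart in the reps 5-7 or excitatory list, with 1 line per peak and a symbol for each list that holds it. Scores in reps 1-4 run from 9 to 472 and in the shorter lists from 3 to 19.

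Each target gene was then compared between lists by its share of peaks, with Fisher's exact test, two-sided, over genes with at least 10 peaks in both lists together and Benjamini-Hochberg adjustment over all of them. The test compares 2 pooled lists, not conditions, and takes peaks as independent. For the excitatory list against reps 1-4, 11 of 4103 genes were called at an adjusted p under 0.05, all higher in the excitatory list (0.268% of genes tested, 0.268% for higher alone). Arc and Egr1 were among them, of the 5 members tested. Of all genes tested, 89.7% had 0 excitatory peaks. In a list of 766 peaks few genes could be called lower, so nothing is drawn from the shared direction. Arc had 4 of 766 peaks against 32 of 246180, 0.522% against 0.0130% (odds ratio 40.4, Fisher's exact test, adjusted p = 0.00342). Egr1 had 3 peaks against 28, 0.392% against 0.0114% (odds ratio 34.6, Fisher's exact test, adjusted p = 0.0467). Nr4a1 (1 peak, odds ratio 14.6) and Crebbp (1 peak, odds ratio 5.27) did not pass, both with an adjusted p of 1 in Fisher's exact test, and Nptx1 had 0 peaks. Fos, Nptx2, Bdnf and Junb had too few peaks to be tested.

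The Arc and Egr1 calls rest on few peaks. With overlapping peaks merged to sites, Arc had 2 excitatory sites and the call was lost (odds ratio 51.5, adjusted p = 0.149, Fisher's exact test), and the Egr1 call was kept (odds ratio 38.7, adjusted p = 0.0392). With CDS and UTR peaks alone, Arc passed (odds ratio 22.5, adjusted p = 0.0377, Fisher's exact test) and Egr1 did not (odds ratio 19.2, adjusted p = 0.266). With peaks of a score of 10 or more, Arc had 0 excitatory peaks against 16 in reps 1-4.

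For reps 5-7 against reps 1-4, 55 of 4132 genes were called (1.33%), 27 of them higher in reps 5-7 (0.653%). None of the 5 members tested was. Arc came nearest, with 4 peaks against 32 (0.111% against 0.0130%, odds ratio 8.53, Fisher's exact test, unadjusted p = 0.00178, adjusted p = 0.107). Egr1 had 2 peaks against 28 (odds ratio 4.87, Fisher's exact test, adjusted p = 0.934), and Nr4a1, Crebbp and Nptx1 had an adjusted p of 1. Between the excitatory and reps 5-7 lists no member reached 10 peaks. With a minimum of 5, Arc had 4 peaks in each list, which are 0.522% of the excitatory list and 0.111% of reps 5-7 (odds ratio 4.73, Fisher's exact test, adjusted p = 0.372), and Egr1 had 3 and 2 (odds ratio 7.10, adjusted p = 0.372). So a difference of Arc or Egr1 between excitatory neurons and the forebrain libraries that share their numbers was not detectable with these peaks.

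Having a peak in the shorter lists at all was more frequent among genes with many peaks, though most of these had none in each list. Of all 11352 genes with a reps 1-4 peak, 4.04% had an excitatory peak, 12.9% a reps 5-7 peak and 3.07% both. Of the 2292 genes with at least 20 reps 1-4 peaks, 15.3% had an excitatory peak, 41.9% a reps 5-7 peak and 12.7% both. Of the 5 members in this class, Egr1, Nr4a1, Crebbp and Arc had both, and Nptx1 neither. Nptx2 had an excitatory peak with 6 peaks in reps 1-4. Nptx1 and Egr1 had almost the same number of reps 1-4 peaks, 29 and 28, and differed in highest score, 26 against 139.

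Other genes of the response were counted in the same way. Of 17 further immediate early transcription factors, 11 had a reps 1-4 peak, 56 peaks in all, with a median of 3 peaks, and 0 had a peak in any other list. Egr3 had 12, Ier5 8, and Ier2, Jund and Nr4a3 6 each. Egr3 was the only one of them with enough peaks to be tested, and it was not called. Egr1 and Nr4a1, with 28 and 22, stood above each of these 17.

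Of 27 further activity-regulated effectors, 25 had a reps 1-4 peak (median 19), 7 a reps 5-7 peak and 4 an excitatory peak. Ntrk2, the gene of the Bdnf receptor TrkB, had 273, 5 and 1 in reps 1-4, reps 5-7 and excitatory, Homer1, a postsynaptic scaffold, 126, 2 and 0, and Rgs4, a regulator of G protein signalling, 58, 2 and 1. None of the 18 tested was called in either comparison with reps 1-4. Nptxr, the pentraxin receptor that assembles with Nptx1 and Nptx2, had 42 reps 1-4 peaks, and like Nptx1 none elsewhere.

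Of 25 activators of the response, 24 had a reps 1-4 peak (median 24). Ppp3ca, the catalytic subunit of calcineurin, had 685 peaks and Cacna1c, an L-type calcium channel, 378, with 3 and 0 in the excitatory list. Ep300, the paralogue of Crebbp, had 24 reps 1-4 peaks and 0 in the other lists. Camk2a, the kinase whose promoter drives the Cre, was the only one of 19 tested to be called, in both comparisons: 24 reps 5-7 peaks (Fisher's exact test, adjusted p = 0.000527) and 14 excitatory peaks (adjusted p = 5.17e-06) against 524.

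Markers bear on what the excitatory list holds. Of 6 excitatory neuron markers 1 had a peak there, Camk2a; Slc17a7, Tbr1, Neurod2 and Neurod6 were among those with 0. Of 6 oligodendrocyte lineage markers 1 did. Markers of inhibitory neurons, astrocytes, microglia and vascular cells had 0 of 6 each; the astrocyte transporter Slc1a2 had 716 peaks in reps 1-4, 27 in reps 5-7 and 0 in the excitatory list. With 766 peaks in all, a gene with 0 may still have a share of up to 0.480% (upper end of the exact binomial interval). In whole forebrain, fewer cells that contain a transcript and less of it per cell cannot be told apart.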

How the data were processed

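Annotated peak lists were deposited, 1 for each pooled group of libraries. Per the calling summaries, the authors required at least 3 reads and 2 libraries per peak on mm10 (the build of the submitters' processing notes); the sources used here name no aligner or caller. The score of a peak is the authors' deposited whole number and was used as given. Other deposited values used were region, gene symbol and position. Peaks were selected by symbol and counted. Shares carry Wilson or exact binomial 95% intervals. Genes with at least 10 peaks were compared by a two-sided Fisher's exact test and adjusted by Benjamini-Hochberg (threshold 0.05), tested on simulated data first. Sites are overlapping peaks on 1 strand. Distances and gene lengths use RefSeq gene bounds (GRCm38.p6). The text names all 9 genes, their 3 highest peaks per list, all peaks of the shorter lists, the 10 leading small RNAs, the 2 most like genes, and listed partners by peak number. Members, gene lists and alternatives were chosen with earlier results of these data known. Some single genes of the lists are not reported here. No target sequence is printed, since no genome was used here. Python 3.11.15, pandas 2.3.3 and scipy 1.17.1 were used.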

Additional observations from a re-analysis of the deposited data

How the results depend on the processing

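The share of peaks on the 9 genes rose with stricter scores: with peaks of at least 10 it was 0.126% in reps 1-4, 0.615% in reps 5-7 (3 peaks) and 3.03% in the excitatory list (2 peaks). In reps 1-4 it was 0.150% with CDS and UTR peaks alone and 0.115% by summed scores. The excitatory share stayed highest of the 3 under each of the 7 alternatives run. Called genes in reps 5-7 against reps 1-4 numbered 55, and 21 with peaks at or above the median score, 4 with a score of at least 10, 0 with CDS and UTR peaks alone and 3 with reps 1-4 limited to as many of its highest scores. For the excitatory list against reps 1-4 they numbered 11, and 1, 4 and 3 under the last 3 of these. For the excitatory list against reps 5-7 they numbered 7, and 1 at or above the median score, 0 with a score of at least 10, 0 with CDS and UTR peaks alone, 0 with rRNA left out, 1 with merged sites, 4 with the larger list reduced and 1 with a minimum of 5 peaks. These settings change how many genes or peaks are tested, and some change which kinds of peaks are kept. Fewer genes did not always go with fewer calls. With merged sites, reps 5-7 against reps 1-4 had 79 called of 3354 genes. Why the numbers changed was not tested for any setting.

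Arc in the excitatory list against reps 1-4 turned from 0.51 to -0.0505 percentage points with a score of at least 10, where it has 0 peaks of 66, which is no call. Its adjusted p ranged up to 0.149 elsewhere. Egr1 lost its call with peaks at or above the median score (odds ratio 38.1, adjusted p = 0.447, Fisher's exact test), a score of at least 10 (1 peak), CDS and UTR peaks alone and a minimum of 5 peaks (odds ratio unchanged at 34.6, adjusted p = 0.0643, over more genes). Leaving out rRNA, or peaks overlapping IgG peaks, changed no call of a member.

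The 3' UTR share of the reps 1-4 peaks was 65.0% with a score of at least 10, 49.7% by summed scores, 57.3% without Crebbp, 31.4% without Arc and 32.7% without Nptx1; the CDS share was 35.0% with a score of at least 10. The miR-124-3p share was 52.5% with a score of at least 10, 66.9% by summed scores and 43.0% of merged sites. With a reciprocal overlap of 50%, 4 of 8 reps 5-7 peaks (50%) were found again in reps 1-4. Of the excitatory peaks, 5 of 10 were (50%). Many high-scoring peaks of reps 1-4 are narrow, and whether width lowered these shares was not tested. No paired analysis was possible because each list pools its libraries, and for the same reason no library could be left out.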

Other observations

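Peak width moved with the score. The median width was 20 bases over the 185 reps 1-4 peaks on these genes and 10 bases over the 7 that scored 50 or more, against 23 and 10 over the whole list. The Crebbp peak at 472 is listed as chr16:4085739-4085741 and its counterparts in the reps 5-7 and excitatory lists as chr16:4085730-4085751 and chr16:4085733-4085757.

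Sites with several overlapping peaks differed in number between the genes. Of the 11 reps 1-4 sites of Arc 5 held several peaks (45.5%), against 24.4% of the sites that CDS and UTR peaks of the list form. Nptx1 had 3 of 25, Nr4a1 2 of 14, Egr1 4 of 22, Crebbp 9 of 46, Nptx2 2 of 4, Fos 1 of 2 and Bdnf 0 of 4.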
